A study of Mus musculus with 28 samples.

Results

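The expression of 10 genes that macrophages use was followed in 28 RNA-seq libraries of mouse embryonic fibroblasts (MEFs) and of cells taken from them into reprogramming. The genes are C1qa, C1qb, C1qc, Lyz2, Csf1r, Adgre1, Cd68, Mrc1, Marco and Tyrobp, 10 of the 50600 genes in the table. They were chosen with earlier results of the same libraries in view, in which Lyz2, C1qa, C1qc and Marco were among the largest falls against DMSO and a macrophage list was lower on day 3. Each name occurs on 1 row of the table. The MEFs came from E13.5 embryos of male OG2 mice, which carry an Oct4-GFP reporter, and 129 females, and the labels give the genotype as WT. There are 14 groups of 2 libraries. The first 2 groups are MEFs without treatment and MEFs treated with SB203580, an inhibitor of the p38 MAP kinases, called p38i. The other 12 groups are cells on days 1, 3, 5 and 7 after retroviral delivery of Sox2, Klf4 and Oct4 and a change to iCD1, a chemically defined induction medium. Of these, the DMSO groups had no inhibitor, the p38i groups had it during induction, and the pre-p38i groups had it on the MEFs before induction. The labels name no solvent for untreated MEFs or for the DMSO groups.

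Macrophages are tissue phagocytes that in the embryo arise from yolk sac and fetal liver precursors. They depend on the receptor CSF1R and its ligands CSF1 and IL-34, and on the transcription factor PU.1. They take up particles through scavenger and lectin receptors, digest them in lysosomes with enzymes such as lysozyme, and are a main source of the complement component C1q.

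The table gives 1 whole number for each gene and library. These numbers add up to between 991287 and 992537 in a library and were read as TPM (a relative abundance corrected for transcript length) that the authors rounded down. All values below are on this scale unless a log2 scale is named, and pairs of values are those of replicate 1 and replicate 2. TPM keeps no read number, so the depth is unknown, and a value of 0 means less than 1. Between 12454 and 14170 genes of a library had a value of at least 1. No pair of replicates was identical. Differences were tested with limma on log2(value + 1) over the 13230 genes whose mean reached 1, and all 10 genes passed this filter. A gene was called at a Benjamini-Hochberg adjusted p under 0.05. The labels do not say whether replicates came from separate cultures, so p-values measure the spread between these libraries, which may be technical. An exact permutation test of 2 libraries against 2 cannot give a p below 0.333.

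By the sum of their markers, the cultures were fibroblasts at the start. The summed value of 9 fibroblast markers, such as Col1a1 and Vim, was 13379 and 12579 in untreated MEFs. It was 3362 and 3543 in DMSO, 4437 and 4421 in p38i, and 2510 and 2366 in pre-p38i on day 7. Vim, Col1a1 and Col1a2 carried most of the sum in untreated MEFs, with means of 5645, 4015.5 and 2520.5. Dcn and Lum, of the same list, were low there, with means of 7 and 0. They had means of 179.5 and 20 on DMSO day 1 and of 103 and 42.5 on DMSO day 7. The fall of the sum thus does not hold for each marker. The 10 macrophage genes together reached 292 and 285 in untreated MEFs. Mast cell markers summed to at most 3 and B cell markers to at most 1 in any library. Some markers of other cells were above 0 during induction, while others of the same lists were at 0 in every library. Hbb-y, an embryonic globin, reached 1717, Tek, an endothelial receptor, 67, Cd3g, a T cell receptor component, 52, and Cd2, a T cell adhesion receptor, 45. The sums were 0 to 1720 for erythroid, 2 to 71 for endothelial, 0 to 82 for T and NK cell, 0 to 63 for dendritic cell, 0 to 49 for neutrophil and 15 to 226 for osteoclast markers. Of the 9 T and NK cell markers, 6 were at 0 in every library, as were 2 of the 7 endothelial markers. Only 1 of the 8 erythroid markers had a mean of at least 1. Single markers do not show that such cells were present, and any part of them in the levels below was not tested.

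**Figure D1:**
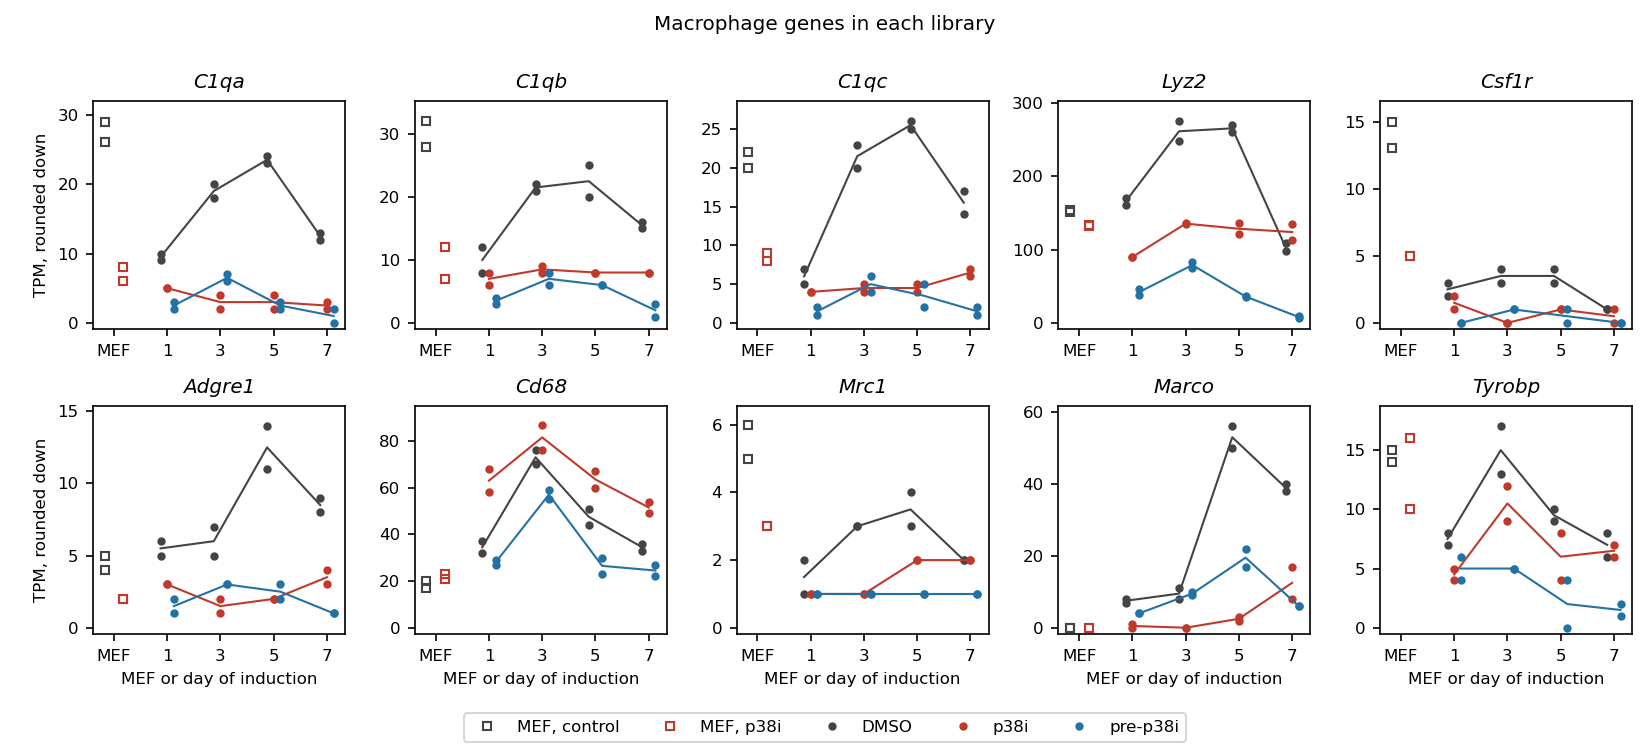
Value (TPM, rounded down) of each macrophage gene in each library, in MEFs and on days 1, 3, 5 and 7 of induction. Squares are MEF libraries, dots are induction libraries and lines join the means of 2 libraries. C1qa, C1qb, C1qc and Lyz2 were highest on day 3 or 5 among the DMSO days, with Lyz2 up to 275, while Marco stood at 0 in every MEF library and reached 56 in DMSO on day 5.

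C1qa, C1qb and C1qc encode the chains of C1q, the recognition component of the classical complement pathway. They lie side by side on the minus strand of chromosome 4 in the table, with C1qb (ENSMUSG00000036905) at 136880129 to 136886187, C1qc (ENSMUSG00000036896) at 136889804 to 136893065 and C1qa (ENSMUSG00000036887) at 136895917 to 136898803. Positions are those of the table, for which the submitters' processing notes name mm10, and 8 of the 10 genes have the same ends in GENCODE M21. C1qa stood at 29 and 26 in untreated MEFs and at 6 and 8 in p38i-treated MEFs. Its DMSO libraries had 9 and 10 on day 1, then 18 and 20 (day 3), 24 and 23 (day 5), and 13 and 12 (day 7). The DMSO libraries were thus far below untreated MEFs on day 1, nearest to them on day 5 and lower again on day 7. In p38i it was 5 and 5, 4 and 2, 4 and 2, and 3 and 2 on the same days. In pre-p38i it was 3 and 2, 6 and 7, 2 and 3, and 2 and 0. Neither inhibitor group overlapped DMSO on any day. In a bulk culture, fewer cells of a type and less RNA per cell cannot be told apart.

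C1qb followed the same course from 28 and 32 in untreated and 12 and 7 in p38i-treated MEFs. In DMSO it was 8 and 12, 22 and 21, 25 and 20, and 16 and 15 on days 1, 3, 5 and 7. It stayed between 6 and 9 in all p38i libraries. Its pre-p38i values were 3 and 4, 8 and 6, 6 and 6, and 3 and 1. The p38i libraries overlapped DMSO on day 1 and lay below it later, and the pre-p38i libraries lay below DMSO on all 4 days. C1qc stood at 22 and 20 in untreated and 8 and 9 in p38i-treated MEFs. Its DMSO values were 5 and 7, 23 and 20, 26 and 25, and 14 and 17. Those in p38i ran from 4 to 7, and those in pre-p38i from 1 on days 1 and 7 to 6 on day 3. No inhibitor library reached the DMSO libraries of its day.

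The 250 bases before the RefSeq start sites of C1qb and C1qc are shown, since these neighbours moved together over the libraries. The RefSeq start of C1qc lies inside the gene as placed above, so part of its window overlaps the gene. The sequences are from RefSeq on GRCm38.p6, 5′ to 3′ on the strand of the gene, and capitals mark GAGGAA on either strand, the core of the PU box that PU.1 binds.
C1qb (chr4:136886201-136886450, minus strand): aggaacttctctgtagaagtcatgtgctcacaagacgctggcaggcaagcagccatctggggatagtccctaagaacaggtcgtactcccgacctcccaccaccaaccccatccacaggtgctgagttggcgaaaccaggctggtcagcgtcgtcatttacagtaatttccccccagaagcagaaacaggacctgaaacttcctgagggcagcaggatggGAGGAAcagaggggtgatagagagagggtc
C1qc (chr4:136892915-136893164, minus strand): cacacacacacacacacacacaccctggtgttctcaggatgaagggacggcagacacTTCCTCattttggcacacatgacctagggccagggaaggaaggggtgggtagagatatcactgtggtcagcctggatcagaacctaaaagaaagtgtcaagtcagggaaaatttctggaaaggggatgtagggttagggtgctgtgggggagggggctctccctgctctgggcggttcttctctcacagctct
Each window held 1 match. Of 32851 promoter windows of the same length, 23.3% held at least 1. A match is a description of letters and not of binding.

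Lyz2 (ENSMUSG00000069516, chromosome 10, 117277331 to 117282321, minus strand) encodes lysozyme M, which cuts bacterial cell walls, and had the highest mean of the 10 genes. It stood at 154 and 152 in untreated and 134 and 132 in p38i-treated MEFs. The DMSO libraries had 171 and 161 (day 1), 248 and 275 (day 3), 270 and 261 (day 5), and 98 and 109 (day 7). In p38i it was 90 and 90, 136 and 135, 121 and 136, and 135 and 113. The p38i libraries were below DMSO on days 1, 3 and 5 and above it on day 7, when the DMSO level had dropped. In pre-p38i it was 46 and 38, 83 and 75, 37 and 35, and 9 and 7. These were the lowest libraries of each day, and those of day 7 the lowest of all 28.

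Lyz2 has a close copy, Lyz1, that could share its reads. The coding sequences from GENCODE M21 are 447 bases long and identical at 425 positions (95.1%), and their longest identical stretch is 118 bases. The first 180 bases of each are shown to let the copies be told apart, with capitals where they differ.
Lyz2: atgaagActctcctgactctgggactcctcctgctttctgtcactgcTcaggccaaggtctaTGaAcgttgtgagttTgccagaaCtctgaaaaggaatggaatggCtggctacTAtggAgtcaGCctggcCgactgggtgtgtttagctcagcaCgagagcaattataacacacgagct
Lyz1: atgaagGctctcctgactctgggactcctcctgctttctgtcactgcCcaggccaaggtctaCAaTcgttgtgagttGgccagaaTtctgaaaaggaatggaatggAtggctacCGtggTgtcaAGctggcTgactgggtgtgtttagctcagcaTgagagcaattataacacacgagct
Lyz1 was listed at 0 in all 28 libraries, so the table puts all lysozyme of this pair on Lyz2. How the estimation of shared reads bears on this was not tested.

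Csf1r (ENSMUSG00000024621) encodes the receptor for CSF1 and IL-34 that macrophages need for survival. It stood at 15 and 13 in untreated MEFs, 5 and 5 in p38i-treated MEFs, and between 1 and 4 in the DMSO libraries. In p38i it ran from 0 to 2 and in pre-p38i from 0 to 1, with 8 of the 28 libraries listed at 0. The highest libraries were therefore MEFs, and with the inhibitor the induction libraries were at the floor of the table. Csf1r overlaps Hmgxb3, on the opposite strand, over 873 exonic bases or 15.1% of its own. Reads there cannot be assigned without strand, and whether strand was used is not given in the sources used here. Hmgxb3 ran from 16 to 24 over all libraries and was not called between p38i-treated and untreated MEFs (0.03 on the log2 scale, adjusted p = 0.938, limma). From day 1 to day 7 in DMSO it fell by 0.40 (adjusted p = 0.00208, limma), where Csf1r differed by -0.79. It was not called in the same comparison in p38i or pre-p38i, or between MEFs and day 1.

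Adgre1 (ENSMUSG00000004730, chromosome 17, 57358686 to 57483529, plus strand) encodes F4/80, an adhesion receptor used as a surface mark of mouse macrophages. It was 4 and 5 in untreated and 2 and 2 in p38i-treated MEFs. In DMSO it was 6 and 5, 7 and 5, 11 and 14, and 8 and 9 on days 1, 3, 5 and 7, so that DMSO day 5 held the highest libraries. It ran from 1 to 4 in p38i and from 1 to 3 in pre-p38i, with every inhibitor library below the DMSO libraries of its day. Tyrobp (ENSMUSG00000030579, chromosome 7, 30413760 to 30417585, plus strand) encodes DAP12, an adaptor that passes on signals of activating receptors such as TREM2. It was 14 and 15 in untreated and 10 and 16 in p38i-treated MEFs, which overlapped. In DMSO it was 8 and 7, 17 and 13, 10 and 9, and 8 and 6. In p38i it was 4 and 5, 12 and 9, 8 and 4, and 7 and 6, which overlapped DMSO on day 7 alone. In pre-p38i it was 6 and 4, 5 and 5, 4 and 0, and 2 and 1, below DMSO on all 4 days.

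Mrc1 (ENSMUSG00000026712, chromosome 2, 14229392 to 14332057, plus strand) encodes the mannose receptor, an endocytic lectin. It was low throughout, at 6 and 5 in untreated MEFs, 3 and 3 in p38i-treated MEFs, and between 1 and 4 during induction. In pre-p38i all 8 libraries stood at 1, and differences of 1 at this level are the smallest the table can show. Its relative Mrc2, which fibroblasts express, ran from 87 and 86 in untreated MEFs to 34 and 34 in DMSO, 45 and 50 in p38i and 15 and 14 in pre-p38i on day 7.

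Marco (ENSMUSG00000026390, chromosome 1, 120474538 to 120505024, minus strand) encodes a scavenger receptor with a collagenous stem. All 4 MEF libraries listed it at 0, and it appeared on induction. In DMSO it was 8 and 7, 11 and 8, 50 and 56, and 38 and 40 on days 1, 3, 5 and 7. In p38i it was 1 and 0, 0 and 0, 3 and 2, and 17 and 8, so it came later and lower. In pre-p38i it was 4 and 4, 10 and 9, 22 and 17, and 6 and 6, which overlapped DMSO on day 3 and was below it on the other days. Cd3g, a T cell gene, was also at 0 in all MEF libraries, and on day 5 it was 52 and 50 in DMSO, 6 and 6 in p38i and 40 and 44 in pre-p38i. Of the 9 T and NK cell markers that include Cd3g, 6 were at 0 in every library. Whether the course of Cd3g is linked to that of Marco was not tested. The course of Marco was unlike that of the C1q genes, which were highest or near their highest in untreated MEFs.

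Cd68 (ENSMUSG00000018774, chromosome 11, 69664213 to 69666153, minus strand) encodes a lysosomal membrane glycoprotein that is abundant in macrophages and also found in other cells. It was 20 and 17 in untreated and 23 and 21 in p38i-treated MEFs. In DMSO it was 37 and 32, 76 and 70, 44 and 51, and 36 and 33. In p38i it was 58 and 68, 87 and 76, 60 and 67, and 54 and 49, and lay above DMSO on days 1, 5 and 7 and overlapped it on day 3. In pre-p38i it was 27 and 29, 59 and 55, 23 and 30, and 27 and 22, below DMSO on each day. Untreated MEFs were the lowest group for Cd68, and p38i-treated MEFs overlapped pre-p38i on days 5 and 7.

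The windows before Cd68 and Marco, the genes that departed most from the C1q course, are shown for comparison, with capitals at GAGGAA and at TGANTCA, the AP-1 site, on either strand.
Cd68 (chr11:69666171-69666420, minus strand): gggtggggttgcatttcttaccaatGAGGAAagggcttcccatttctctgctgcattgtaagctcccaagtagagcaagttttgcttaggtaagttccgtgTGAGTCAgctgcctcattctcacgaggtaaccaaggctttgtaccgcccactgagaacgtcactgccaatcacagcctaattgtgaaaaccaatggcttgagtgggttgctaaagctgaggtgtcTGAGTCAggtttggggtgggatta
Marco (chr1:120505025-120505274, minus strand): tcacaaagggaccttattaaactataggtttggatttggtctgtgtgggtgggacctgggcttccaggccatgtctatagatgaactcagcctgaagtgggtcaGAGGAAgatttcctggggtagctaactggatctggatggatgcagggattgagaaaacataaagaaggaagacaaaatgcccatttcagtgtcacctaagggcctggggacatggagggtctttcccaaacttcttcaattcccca
Marco held 1 GAGGAA match. Cd68 held 1 GAGGAA and 2 TGANTCA matches. TGANTCA was found in 6.75% of the 32851 windows, and no other of the 6 genes whose window was searched held it. GAGGAA was found in 5 of the 6, and Lyz2 was without it. Windows of C1qa, Csf1r, Adgre1 and Tyrobp were not searched, so these counts do not cover them. No match means only that these letters are not in the window.

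Over the 14 groups, the order of levels was best resolved for Lyz2, where 10 of 13 neighbours in the order had libraries that did not overlap. The number was 7 for C1qa and Marco, 5 for Cd68, 4 for C1qb and C1qc, 2 for Csf1r, Adgre1 and Mrc1, and 1 for Tyrobp. The highest group was untreated MEFs for C1qa, C1qb, Csf1r and Mrc1, DMSO day 5 for C1qc, Lyz2, Adgre1 and Marco, DMSO day 3 for Tyrobp and p38i day 3 for Cd68. The highest group overlapped the next for Tyrobp (DMSO day 3 and untreated MEFs), Lyz2 (DMSO days 5 and 3) and Cd68 (p38i and DMSO on day 3). The lowest mean was that of pre-p38i day 7 for C1qa, C1qb, Lyz2, Adgre1 and Tyrobp, and only for Lyz2 was it apart from its neighbour.

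The inhibitor alone was compared in MEFs, before any reprogramming factor. The members were not chosen on this comparison, and neither group stands in those with DMSO that led to the choice, so it was tested. However, the pre-p38i groups of that choice also had the inhibitor on their MEFs. Genes chosen for lower values there may be lower in treated MEFs already, so the test is not independent of the choice. Of the 9 genes above 0, 6 were called lower in p38i-treated than in untreated MEFs and 0 higher by limma, also at an unadjusted p under 0.05, with a median of -0.87 on the log2 scale. Over all genes tested, 8.15% were called lower and 9.73% higher, with a median of 0. C1qa differed by -1.84 (standard error 0.36, adjusted p = 0.00101, limma), C1qb by -1.60 (adjusted p = 0.0002195, limma) and C1qc by -1.21 (adjusted p = 0.00366, limma). Csf1r differed by -1.32 (adjusted p = 0.00701, limma), Adgre1 by -0.87 (adjusted p = 0.0129, limma) and Mrc1 by -0.70 (adjusted p = 0.0197, limma). Lyz2 (-0.20), Cd68 (0.24) and Tyrobp (-0.18) were not called. The summed value of 9 fibroblast markers was also lower, at 9783 and 9891 in p38i-treated and 13379 and 12579 in untreated MEFs. Of these markers, Col3a1 (-1.14), Pdgfrb (-0.89), Col1a1 (-0.86) and Col1a2 (-0.83) were called lower by limma, and the part of this in the macrophage values was not tested.

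The 3 C1q calls were kept whichever library was left out. With a pseudocount of 0.1 the adjusted p (limma) was 0.106 for C1qa, 0.314 for Csf1r and 0.0502 for Mrc1. In a fit of only these 2 groups it was 0.122 for C1qb, 0.0741 for Adgre1 and 0.08115 for Mrc1. Lyz2 was called lower in that fit (-0.20, adjusted p = 0.0356, limma). With quantile normalization the adjusted p (limma) of Adgre1 was 0.0504. Without replicate 1 of untreated MEFs the difference of Csf1r was -1.22 (adjusted p = 0.0585, limma). Without replicate 2 of untreated MEFs that of Adgre1 was -0.74 (adjusted p = 0.109, limma), and without replicate 1 or 2 of p38i-treated MEFs it stayed at -0.87 with an adjusted p of 0.0651 or 0.0625 (limma). The call of Mrc1 was lost without replicate 1 of untreated MEFs (-0.59, adjusted p = 0.139, limma) and without either p38i-treated library (adjusted p = 0.0926 and 0.0880, limma).

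Entry into induction was compared between MEFs and day 1. Infection, medium and time changed together between these groups and cannot be told apart. The day 1 libraries also stand in the comparisons with DMSO that led to the choice, so the differences of the 10 genes are given with no test. From untreated MEFs to DMSO day 1 their median was -1.14 on the log2 scale, beside 0.139 over all genes. C1qa (-1.44), C1qb (-1.52), C1qc (-1.67), Csf1r (-2.11), Mrc1 (-1.40) and Tyrobp (-0.87) had both DMSO libraries below both MEF libraries. Cd68 (0.87), Marco (3.09) and Lyz2 (0.12) had them above, and Adgre1 (0.24) overlapped and was -0.12 with quantile normalization. From untreated MEFs to p38i day 1 the median was -1.60, beside 0.0429 over all genes. C1qa (-2.25), C1qb (-1.96), C1qc (-2.14), Csf1r (-2.61), Mrc1 (-1.70), Tyrobp (-1.50), Lyz2 (-0.76) and Adgre1 (-0.45) were then below the MEF libraries. Cd68 (1.71) was above them, and Marco (0.50) overlapped.

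From p38i-treated MEFs to pre-p38i day 1, whose libraries were likewise part of the choice, the median was -1.19, beside 0.0924 over all genes. Lyz2 differed by -1.65 on the log2 scale, C1qa by -1.20, C1qb by -1.19, C1qc by -1.95, Mrc1 by -1.0 and Tyrobp by -1.21. Csf1r differed by -2.585 and was at 0 in both libraries of day 1. Marco (2.32) and Cd68 (0.33) were above p38i-treated MEFs, and Adgre1 (-0.29) overlapped. The C1q genes were thus below their MEFs on day 1 in all 3 conditions, and Cd68 above.

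The course within induction was compared between day 7 and day 1 of each condition. All these libraries stand in the comparisons that led to the choice, so the values are a description with no test. In DMSO, C1qc differed by 1.25, C1qb by 0.61, C1qa by 0.36, Adgre1 by 0.55 and Marco by 2.24 on the log2 scale, with day 7 above day 1 in all libraries. Lyz2 (-0.68) and Csf1r (-0.79) were below day 1. Mrc1 (0.29), Cd68 (0.002) and Tyrobp (-0.10) overlapped, and quantile normalization put Mrc1 at -0.23. Since several genes peaked on days 3 and 5, the ends alone do not show their course.

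In p38i, Lyz2 (0.45), Marco (3.17), C1qc (0.58), Tyrobp (0.45) and Mrc1 (0.59, from 1 and 1 to 2 and 2) were above day 1 on day 7. C1qa (-0.79) and Cd68 (-0.28) were below it, and Csf1r (-0.79), C1qb (0.18) and Adgre1 (0.16) overlapped. Quantile normalization put Mrc1 at -0.01, C1qb at -0.12 and Adgre1 at -0.30.

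In pre-p38i, Lyz2 differed by -2.26 and Tyrobp by -1.27, both below day 1. C1qa (-1.0) and C1qb (-0.66) overlapped, and with 1 library left out they ran from -1.79 to -0.21 and from -1.16 to -0.16, nearest to 0 without replicate 2 of pre-p38i day 7. Adgre1 (-0.29), Cd68 (-0.19), C1qc (0) and Mrc1 (0) overlapped as well. Marco (0.49) was above day 1, and Csf1r was at 0 in these 4 libraries.

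The comparisons with DMSO of the same day were among the results that led to the choice of the genes, so their differences are given with no test. In p38i the median over the 10 genes was -0.57, -1.37, -1.27 and -0.69 on the log2 scale on days 1, 3, 5 and 7. Both p38i libraries lay below both DMSO libraries for 6, 9, 9 and 5 genes, beside 33.8%, 33.3%, 34.2% and 30.3% of all genes tested. In pre-p38i the median was -1.34, -1.28, -1.85 and -2.38, and the genes below DMSO were 9, 9, 10 and 10, beside 20.1%, 17.2%, 21.9% and 24%. On day 7 Lyz2 differed from DMSO by -3.54 in pre-p38i and by 0.25 in p38i. On day 5 Marco differed by -3.96 in p38i and by -1.41 in pre-p38i. C1qa differed by -2.66 and -2.82, and Cd68 by 0.41 and -0.83, in p38i and pre-p38i on day 5. Both inhibitor groups were set against the same DMSO libraries. The sum of fibroblast markers in DMSO was 8500 and 8214, 7472 and 6957, 4678 and 5239, and 3362 and 3543 on days 1, 3, 5 and 7. Its p38i values were 7309 and 7433, 6058 and 5915, 5260 and 5098, and 4437 and 4421, below DMSO on days 1 and 3, overlapping on day 5 and above on day 7. Those of pre-p38i were 6424 and 6855, 5003 and 5126, 3527 and 3341, and 2510 and 2366, below DMSO on all 4 days. The part of these sums in the differences was not tested.

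**Figure D2:**
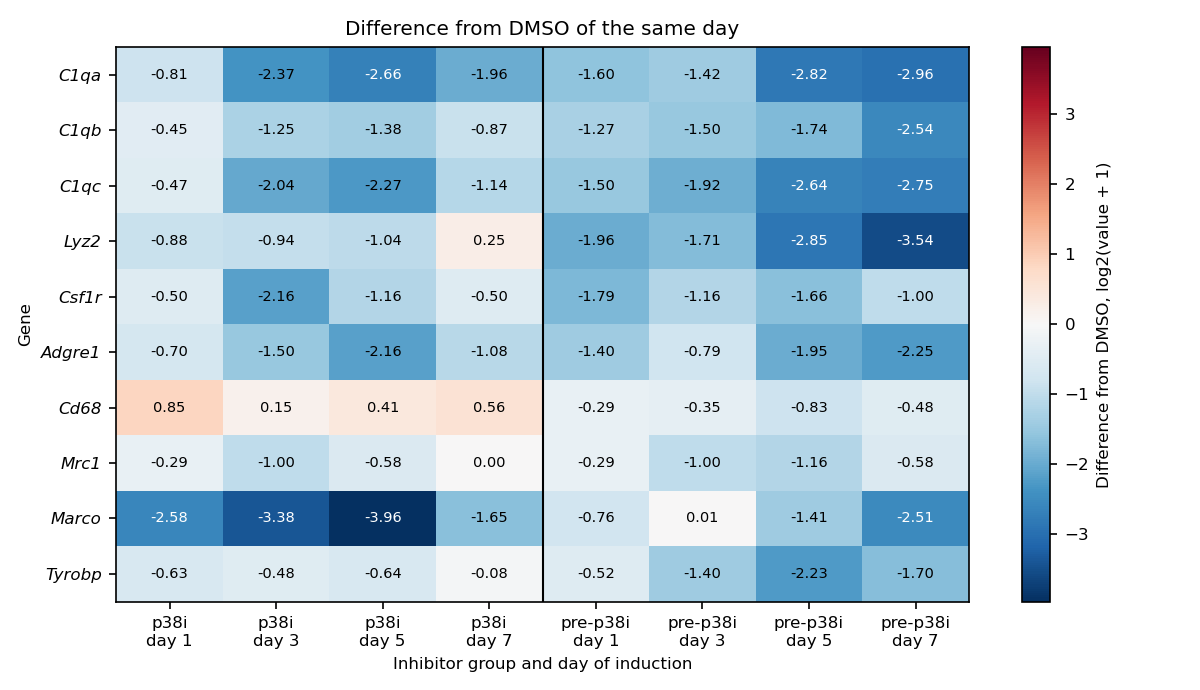
Difference from DMSO of the same day on the log2(value + 1) scale (colour and printed value) for each gene (rows) in p38i and pre-p38i on each day (columns), from the means of 2 libraries. Cd68 is above 0 in p38i on every day, and in pre-p38i on days 5 and 7 all 10 genes are below 0.

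The summed value of the 10 genes in DMSO was 429 and 438 on day 3 and reached 468 and 465 on day 5. The day 5 sums were 214 and 228 in p38i and 104 and 96 in pre-p38i, and the lowest sums were 52 and 41, in pre-p38i on day 7. Lyz2 alone made up 53.0% ± 0.42 (SD, n = 2) of the sum in untreated MEFs, 66.3% ± 0.77 in DMSO on day 1 and 17.2% ± 0.17 in pre-p38i on day 7. Sums are therefore dominated by Lyz2 and Cd68, which together gave 57.7% to 88.3% in all groups. Without Lyz2, Cd68 and Marco, the other 7 genes summed to 118 and 116 in untreated MEFs, 46 and 50 in p38i-treated MEFs, 104 and 97 in DMSO on day 5, and 10 and 6 in pre-p38i on day 7.

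The genes also differed in how they varied together. Over the 28 libraries, Pearson's r of the log2 values was 0.90 between C1qa and C1qb, 0.87 between C1qa and C1qc and 0.91 between C1qb and C1qc. It was 0.83 between Csf1r and Mrc1 and 0.825 between Lyz2 and C1qb. Cd68 reached at most 0.42, with Lyz2, and Marco at most 0.58, with Adgre1. Over the 24 induction libraries alone, Cd68 and Lyz2 had an r of 0.68 and Marco and Adgre1 of 0.69. These are descriptions. Libraries of a group share their culture conditions, and low genes take few values.

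**Figure D3:**
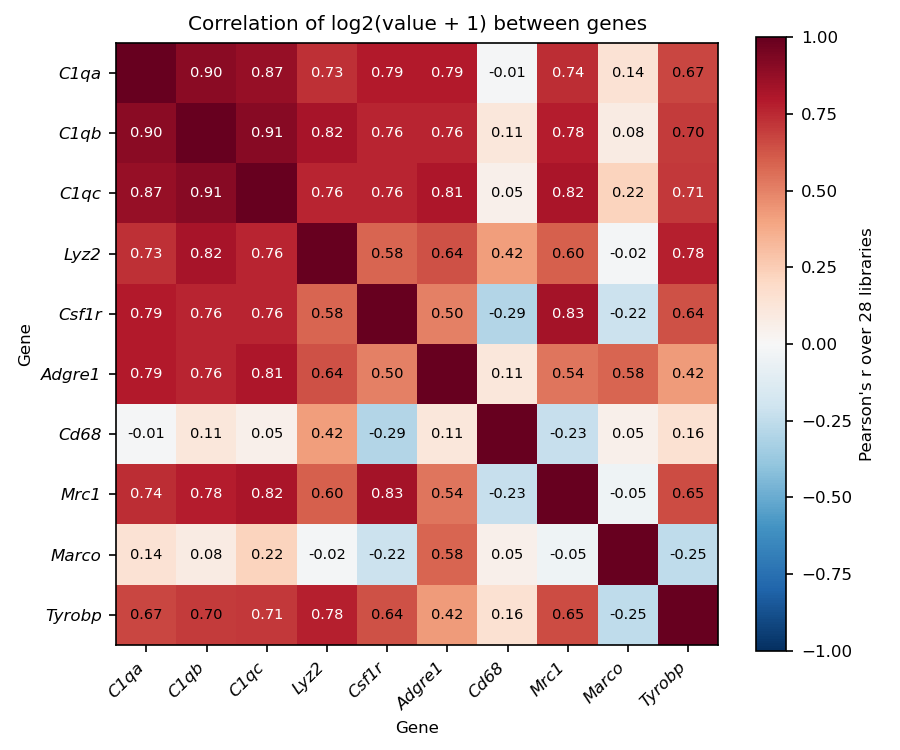
Pearson's r between the log2(value + 1) levels of each pair of macrophage genes over 28 libraries (colour and printed value). The C1q genes form a block with r from 0.87 to 0.91, while the rows of Cd68 and Marco are pale.

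The mean z-score of 8 of the genes (all but Csf1r and Mrc1, whose means were below 3) was used as a reference pattern, and 11590 other genes above the same minimum were ranked by their r with it. The 10 most like it were Rasgrp3 (r = 0.902), Cd53 (0.824), Inhbb (0.824), A430105I19Rik (0.821), Mxra8 (0.803), Gpc4 (0.790), Ctss (0.772), Slc38a10 (0.764), Gxylt2 (0.763) and Palld (0.745). Of these, 7 were also among the 10 by Spearman's rho. Only Cd53, a leukocyte tetraspanin, and Ctss, the lysosomal protease cathepsin S, are in the list of other macrophage genes. Rasgrp3, Inhbb, A430105I19Rik, Mxra8, Gpc4, Slc38a10, Gxylt2 and Palld are not in it, so most of the nearest genes were from outside that list. Rasgrp3, an activator of Ras proteins, was 6 and 7 in untreated MEFs, 13 and 14 in DMSO and 4 and 4 in pre-p38i on day 5, and 2 and 2 in pre-p38i on day 7. C1qc was the member closest to the pattern (r = 0.918), and Cd68 (0.325) and Marco (0.312) the farthest.

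CSF1R has 2 ligands, and from MEFs to day 1 their values moved in opposite directions. Csf1 was 255 and 241 in untreated MEFs and 319 and 325 in p38i-treated MEFs, a rise of 0.38 on the log2 scale (adjusted p = 0.0008205, limma). On day 1 it was 57 and 51 in DMSO, a difference of -2.18 from untreated MEFs, and it stayed between 31 and 66 in every induction library. Il34 was 0 and 1 in untreated and 0 and 0 in p38i-treated MEFs. In DMSO it was 36 and 33 on day 1 and 148 and 152 on day 7, a rise of 2.09. In p38i it rose from 26 and 27 to 205 and 172, and in pre-p38i from 47 and 47 to 81 and 70. In MEFs the inhibitor thus went with a higher Csf1 and a lower Csf1r.

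Complement genes other than C1q also had their own course. The sum of 8 of them was 7 and 11 in untreated MEFs, 856 and 872 in DMSO, 338 and 333 in p38i and 789 and 797 in pre-p38i on day 5. On day 5 Serping1, the inhibitor of C1r and C1s, had values of 341 and 333 in DMSO, while its pre-p38i values were 387 and 410. C1ra and C1s1, the proteases that C1q activates, were 148 and 147, and 115 and 117, in DMSO on that day, while in pre-p38i they were 108 and 106, and 93 and 88. The C1q chains were therefore low in pre-p38i on day 5 beside high levels of these other complement genes.

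**Figure D4:**
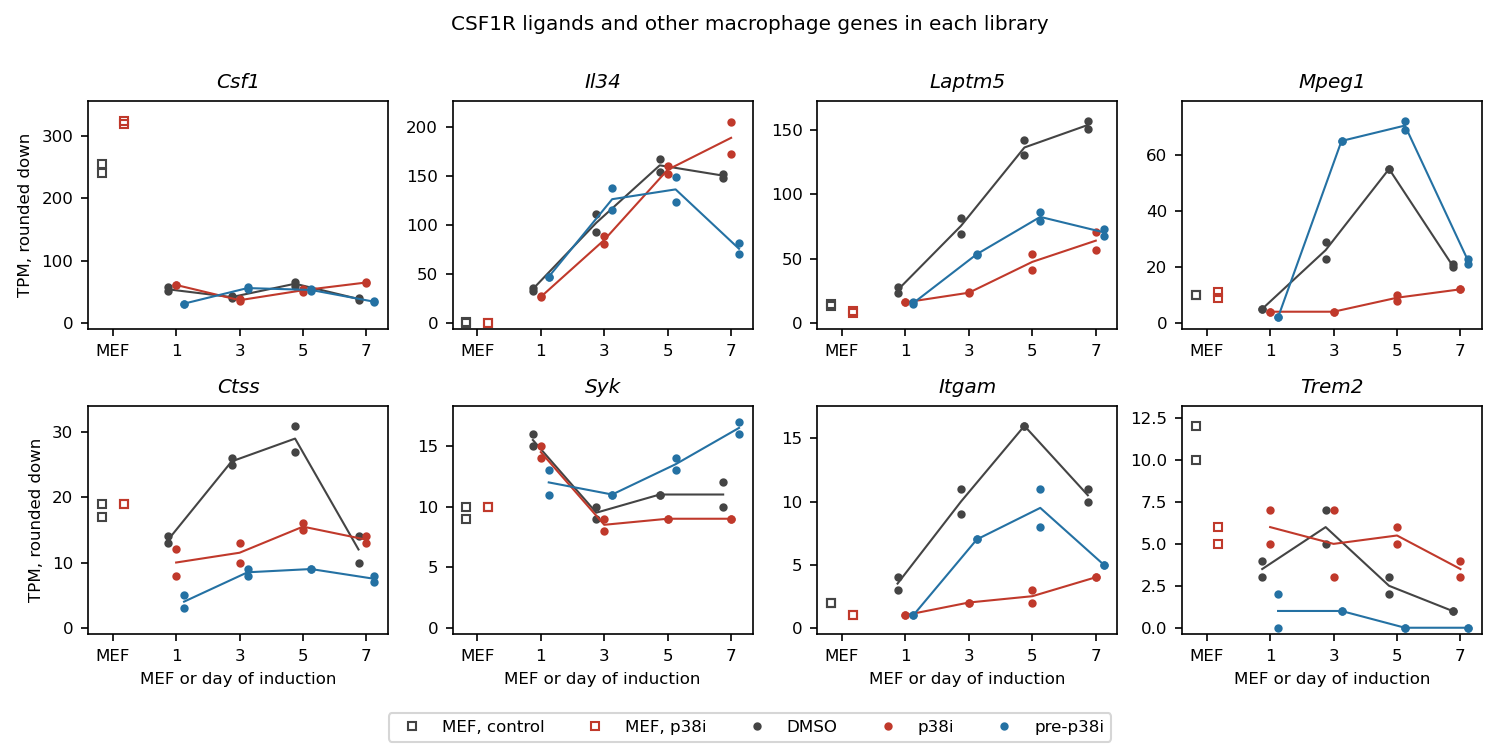
Value (TPM, rounded down) of the CSF1R ligands Csf1 and Il34 and of 6 other macrophage genes in each library, with symbols as in the plot of the macrophage genes. Csf1 drops from 255 and 241 in untreated MEFs to 66 or less in induction, while Laptm5 climbs to 151 and 157 in DMSO on day 7.

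A list of 56 other genes of macrophages and leukocytes, also drawn up with earlier results known, was read beside the 10. Of these, 34 passed the same filter and were tested. They held 2 of 4 transcription factors, 5 of 10 activating receptors and kinases, 5 of 16 scavenger and chemotactic receptors, 11 of 14 leukocyte surface and cytoskeletal genes and 11 of 12 phagocyte oxidase and lysosomal genes. Cd163, a scavenger receptor of tissue macrophages, was at 0 in every library, and Ptprc, the CD45 antigen of blood cells, was between 0 and 2. Spi1, which encodes PU.1, was 5 and 3 in untreated MEFs, 1 to 4 in DMSO and 0 in the 4 pre-p38i libraries of days 5 and 7. Cx3cr1, the fractalkine receptor, was 6 and 5 in untreated MEFs and 0 in all other libraries. These 4 and Itgam and Trem2 are named after their values were seen.

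At an unadjusted p under 0.05 (limma), 13 of the 34 were lower and 0 higher in p38i-treated than in untreated MEFs. The share of all genes at that threshold was not computed, so this count has no background beside it. The shares of all genes below are for adjusted calls. After adjustment, 5 were called lower (14.7%, beside 8.15% of all genes) and 0 higher (beside 9.73%), with a median over the 34 of -0.56 on the log2 scale. The count was 2 without either p38i-treated library and 3 without either untreated library. Laptm5, a lysosomal membrane protein of blood cells, fell from 15 and 13 to 8 and 9 (-0.66, adjusted p = 0.000822, limma). Mpeg1, the pore-forming perforin-2 of phagocytes (10 and 10 to 11 and 9), Ctss (17 and 19 to 19 and 19) and Syk, a kinase downstream of ITAM adaptors (9 and 10 to 10 and 10), were not called. From untreated MEFs to DMSO day 1, 9 were called lower and 6 higher (26.5% and 17.6%, beside 18.9% and 36.6% of all genes). The libraries of this and the next comparisons were in view when the list was drawn up, so the counts are a description. Laptm5 (0.82) and Syk (0.65) rose and Mpeg1 fell by 0.87. The count of both directions was 10 to 13 with 1 library left out, lowest without replicate 2 of DMSO day 1. To p38i day 1, 16 were lower and 4 higher (47.1% and 11.8%, beside 23.3% and 32.2% of all genes). From p38i-treated MEFs to pre-p38i day 1, 12 were lower and 2 higher (35.3% and 5.88%, beside 20.7% and 35.3%). The last count was 8 in all without replicate 1 of p38i-treated MEFs and 9 without replicate 2 of pre-p38i day 1. With quantile normalization the 3 splits into lower and higher were 17 and 3, 19 and 1, and 19 and 1. That setting also moved the split over all 13230 genes. It became 3751 and 3392, 3588 and 3423, and 3835 and 3411, from 2500 and 4840, 3084 and 4265, and 2735 and 4672.

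From day 1 to day 7, the list split in each condition. These libraries too were in view when the list was drawn up, so the counts are a description. In DMSO, 9 genes were called lower and 8 higher (26.5% and 23.5%), beside 26.1% and 28.4% of all genes. In p38i they were 10 and 8 (29.4% and 23.5%), beside 22% and 32.8%, and in pre-p38i 11 and 6 (32.4% and 17.6%), beside 27.5% and 36.1%. Scavenger and chemotactic receptors gave 4, 3 and 3 of 5 lower and 0 higher. Phagocyte oxidase and lysosomal genes gave 0, 2 and 3 of 11 lower and 4, 4 and 3 higher. With quantile normalization the list's splits were 14 and 5 in DMSO, 16 and 4 in p38i and 16 and 5 in pre-p38i. Those of all 13230 genes moved too, to 4080 and 3263, 3891 and 3187, and 4343 and 3873. In the main fit they were 3457 and 3760, 2914 and 4345, and 3639 and 4775. Laptm5 rose by 2.55 in DMSO, 1.93 in p38i and 2.12 in pre-p38i, and Mpeg1 by 1.84, 1.38 and 2.94. Syk fell in DMSO (-0.46) and p38i (-0.63) and rose in pre-p38i (0.43). Ctss differed by 0.79 in pre-p38i, -0.17 in DMSO and 0.42 in p38i.

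The differences of the list from DMSO of the same day were known when it was drawn up, so only medians and values are given and nothing is read from them. In p38i the median over the 34 genes was -0.357, -0.83, -0.801 and -0.538 on the log2 scale on days 1, 3, 5 and 7, beside -0.085, -0.076, -0.076 and 0 over all genes. In pre-p38i it was -0.631, -0.792, -1.11 and -1.04, beside 0, 0.07, 0.037 and 0.053. On day 5 Mpeg1 was 55 and 55 in DMSO, 10 and 8 in p38i and 72 and 69 in pre-p38i, Ctss 27 and 31, 16 and 15, and 9 and 9, and Laptm5 131 and 142, 54 and 41, and 86 and 79. Mpeg1 was thus above DMSO in pre-p38i on days 3 and 5, where the C1q genes were below it. Itgam, an integrin of myeloid cells, was 16 and 16, 3 and 2, and 11 and 8. Trem2, a lipid receptor that signals through DAP12, was 2 and 3, 6 and 5, and 0 and 0, so that it was higher in p38i than in DMSO on that day.

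**Figure D5:**
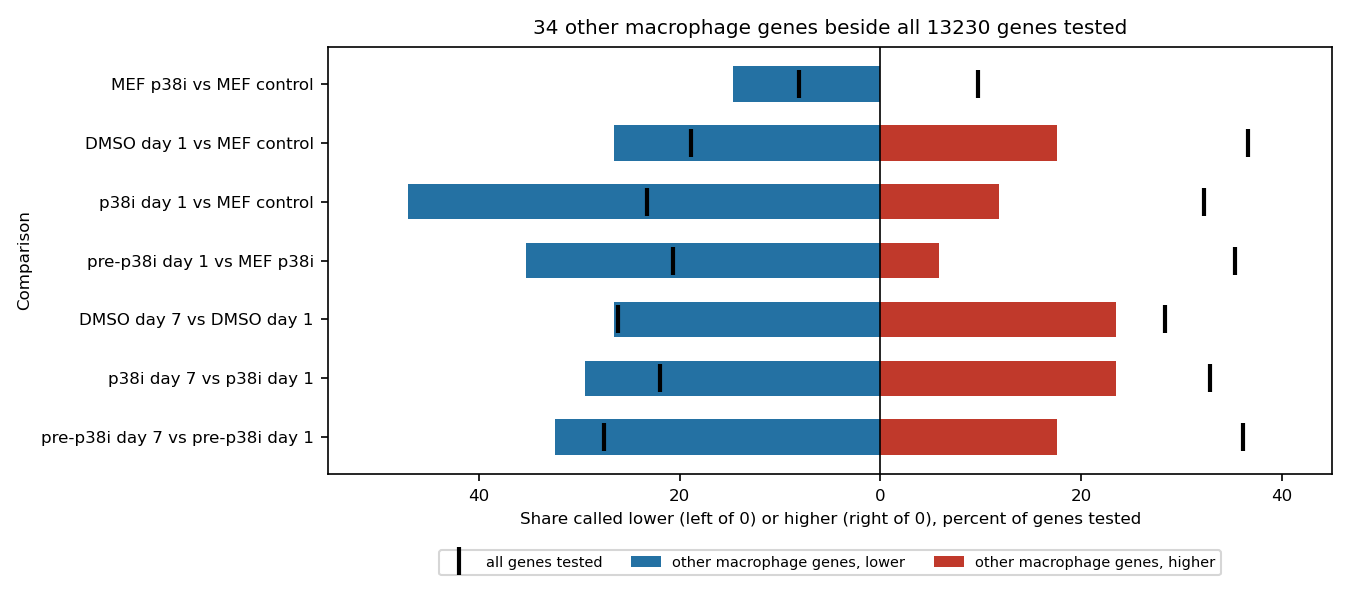
Share of the 34 tested genes from the list of other macrophage genes called lower (blue, left of 0) and higher (red, right of 0) by limma in the comparisons other than those with DMSO of the same day, with black marks for the share of all 13230 genes. The longest blue bar is that of p38i day 1 against untreated MEFs (47.1%, with the mark at 23.3%), and in every comparison the red bar ends left of its mark.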

How the data were processed

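Per the labels, RNA-seq was done on 28 libraries in 14 groups of 2. Per the submitters' processing notes, bcl2fastq, Bowtie2 2.2.5 and RSEM 1.3.0 were used, with the builds mm10 and hg38. The authors deposited 1 table of whole-number scores, read as TPM rounded down from their near-constant sums. It keeps no depth, so no counting interval can be given. Labels and paper differ on MEF medium, library kit and RNA extraction. Groups came from sample titles. The 10 genes and all lists were chosen with earlier results of these data known, so differences from DMSO were not tested for either. The 10 genes were tested only between treated and untreated MEFs, whose libraries stand in none of the comparisons with DMSO. That test shares the treatment of MEFs with the pre-p38i groups and is not independent of the choice.

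Values were tested with limma 3.58.1 in R 4.3.3 (all 14 groups in 1 fit, log2(value + 1), mean of at least 1, Benjamini-Hochberg adjustment over 13230 genes), checked on simulated data. Python 3.11.15 was used for summaries. Alternatives were a pseudocount of 0.1, a mean of at least 5, no filter, quantile normalization, a replicate block, fits of only the groups compared and leaving out each library. Of the other macrophage genes, the 4 with the largest means were named. Promoters came from RefSeq on GRCm38.p6 and coding sequences from GENCODE M21.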

Additional observations from a re-analysis of the deposited data

Results flagged for a closer look

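These differences between conditions were flagged because every library of one condition moved one way and every library of the other the opposite way. They are built from the libraries that led to the choice of the genes, and none was tested. All are on the log2 scale. For Lyz2, the day 7 difference from DMSO was 3.799 greater in p38i than in pre-p38i. Its change from day 1 to day 7 was 1.13 greater in p38i than in DMSO and 2.711 greater than in pre-p38i. For Cd68, the difference from DMSO was greater in p38i than in pre-p38i by 1.138 on day 1, 1.24 on day 5 and 1.047 on day 7. For C1qa, the change from day 1 to day 7 in p38i minus that in DMSO was -1.156. For Tyrobp, the same change was 1.722 greater in p38i than in pre-p38i.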

How the results depend on the processing

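Of 9 tests of the 10 genes between p38i-treated and untreated MEFs, 6 gave calls, of which 1 was kept under every alternative and 5 were lost under at least 1. Of the 3 others, 1 was called under some alternative. With 1 library left out, Tyrobp ran from -0.494 to 0.134. Of 1053 alternative values for the 139 untested differences of the other comparisons, 216 were counted as moved, by at least the spread between replicates. Where the replicates of both groups were identical this spread was 0, so unchanged values were counted there too, as for Mrc1 in pre-p38i. With quantile normalization Adgre1 was -0.119 from untreated MEFs to DMSO day 1. The cause was not tested.

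The number of other macrophage genes called between p38i-treated and untreated MEFs was 3 with a pseudocount of 0.1 or quantile normalization and 8 with no filter. With no filter more of the list was tested than the 34 of the main fit, so the 8 has another denominator. Of 17869 genes then tested in all, 1080 were called lower and 1220 higher. A pseudocount of 0.1 gave 8 from untreated MEFs to DMSO day 1, 12 to p38i day 1 and 10 between days 7 and 1 in p38i. Fits of only the groups compared gave 6 from p38i-treated MEFs to pre-p38i day 1 and 11 between days 7 and 1 in pre-p38i. A mean of at least 5 left 8 of the genes to be tested, and the numbers called were then 2 to 8: 2 for MEFs, 4, 6 and 4 for the changes to DMSO, p38i and pre-p38i day 1, and 6, 7 and 8 between days 7 and 1 in DMSO, p38i and pre-p38i.

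With 1 library left out the ranges were 2 to 3 for MEFs, 10 to 13, 14 to 17 and 8 to 12 for the changes to day 1, and 13 to 16, 12 to 15 and 13 to 17 between days 7 and 1.

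Replicate numbers did not pair the libraries: correlations of their deviations ran from -0.0838 to 0.0874 over 91 pairs of groups. With the replicate number as a block, 5 other macrophage genes were called in MEFs.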
